A study of Homo sapiens with 8 samples.

Results

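The mitochondrial ribosomal protein genes are the nuclear genes whose symbols begin with MRPL, for the large subunit, or MRPS, for the small subunit. They were taken as all protein-coding rows with such a symbol and a number that reached 1 TPM (transcript abundance scaled for length and library total) in at least 2 of 8 libraries. All 78 protein-coding rows passed, 49 MRPL and 29 MRPS genes, out of 56269 rows in the tables, of which 16060 passed the same filter on level. A further 74 rows of pseudogenes or antisense transcripts carried such symbols and were not members, and only 2 of them reached 1 TPM in any library. How reads shared between a gene and its pseudogene copies were assigned is not given in the sources used here.

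RNA was sequenced from SNU1079 and SSP25, established human lines of cholangiocarcinoma (CCA, cancer of the bile ducts), after 48 hours of treatment. Both carry the label wildtype, although the authors reported mutations of IDH1 and ARID1A in SNU1079. The groups were BETp + mTORi, BETp (40 nM ARV825), mTORi (50 nM AZD8055) and vehicle (0.01% DMSO), and the labels state no doses for the joint treatment. ARV825 joins a ligand of BET bromodomain proteins to a ligand of the ubiquitin ligase cereblon, so that the BET proteins, which read acetylated histones, are degraded, and AZD8055 inhibits the mTOR kinase, a controller of growth and protein synthesis. Each treatment had 1 library in each line, and each line is a single culture per treatment. For the drug comparisons the 2 lines thus served as the replicates. Their p-values measure the spread between lines, and none between repeated cultures. For a drug averaged over the other, that spread also holds any departure of the joint effect from the sum of both single effects.

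Mitoribosomes translate the few proteins that the mitochondrial genome encodes, all of them parts of the respiratory chain and ATP synthase. Their rRNAs come from the mitochondrial genome, whereas every one of their proteins is encoded in the nucleus, made in the cytosol and imported. Some of these proteins have relatives in bacterial ribosomes and others occur only in mitochondria. The name does not settle the place of each protein: MRPS30 and MRPS18A sit in the large subunit, and the product of MRPS36 is a component of the 2-oxoglutarate dehydrogenase complex.

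Depth could not be judged, because TPM keep no read counts. Within a line, library pairs correlated across all tested genes at 0.975 to 0.986, and between lines at 0.789 to 0.807. The keratins KRT7, KRT8, KRT18 and KRT19 of biliary epithelium stood at 293 TPM or more in all 8 libraries, whereas EPCAM, another epithelial marker, was at 0.90 to 1.74 TPM in SSP25. Markers of other cells (14 genes) were mostly near 0, except CD68 at 76.4 to 210 TPM in both lines, and COL1A1 at 272 to 1003 TPM and SERPINA1 at 7.64 to 41.8 TPM in SNU1079. The part of these markers in any result was not tested.

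The members were expressed in every library, with values between 5.10 and 537 TPM. Their median was 54.6 TPM with BETp + mTORi, 63.0 TPM with BETp and 60.8 TPM with mTORi in SNU1079, against 67.4 TPM with vehicle. In SSP25 the medians were 58.4, 69.0 and 65.8 TPM with BETp + mTORi, BETp and mTORi, against 73.5 TPM with vehicle. The median was thus lowest with the joint treatment and highest with vehicle in both lines. Together the members took 0.535% to 0.643% of all TPM.

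By median over the 8 libraries the highest members were MRPS24 (271 TPM), MRPS35 (250.5 TPM), MRPL51 (225 TPM), MRPL33 (220 TPM) and MRPL52 (178 TPM). MRPL12, whose copies form the flexible stalk that recruits translation factors, followed at 152 TPM. The lowest were MRPL50 (8.21 TPM), MRPS31 (12.8 TPM), MRPL57 (16.1 TPM), MRPL1 (17.3 TPM) and MRPL46 (22.1 TPM). The value of MRPS35 is the middle of 426 to 537 TPM in SNU1079 and 54.8 to 75.2 TPM in SSP25, and no library held it. The ranges of the others at the top overlapped, at 217 to 319 TPM for MRPS24, 151 to 256 TPM for MRPL51 and 164 to 294 TPM for MRPL33. At the bottom, MRPL50 (5.10 to 12.5 TPM) was below MRPS31 (10.6 to 16.7 TPM) in each library. TPM are scaled for transcript length, so these levels can be set side by side between genes with a limit. Reads shared with pseudogene copies and the annotation used can also move a level, and this was not tested.

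The first comparison asks what 48 hours of BETp + mTORi did to these genes relative to vehicle. Most members were somewhat lower: 62 of 78 in both lines and 3 (MRPL33, MRPL10 and MRPS14) higher in both, against 51.0% lower and 13.2% higher in both lines among all 16060 genes. These include noncoding genes. Among the 13063 protein-coding genes tested, 56.7% were lower in both lines. The median log2 change was -0.25 over members, -0.21 over protein-coding genes tested and -0.19 over all genes tested. Most of the shift was thus shared with the whole table. Large subunit genes had a median of -0.26 (-0.31 in SNU1079 and -0.23 in SSP25) and small subunit genes -0.21 (-0.16 in SNU1079 and -0.17 in SSP25). Assigned by structure rather than by name, the medians were -0.30 for 51 large subunit genes and -0.19 for 26 small subunit genes. The difference between subunits was not tested, since genes are not replicates. In bulk RNA, fewer cells of a type and less RNA per cell cannot be told apart.

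By limma with Benjamini-Hochberg adjustment, 1 of the 78 members passed an adjusted p of 0.05, beside 1.81% of all genes tested (0.293% higher and 1.52% lower). At an unadjusted p under 0.05 there were 34 members (26 large and 8 small subunit genes). That is 43.6% of members, beside 25.8% of all genes and 28.6% of protein-coding genes. With the filter at 5 TPM, which every member passes, 3632 of 11772 genes had such a p. In the plot of all members by gene, 68 of 78 points of SNU1079 and 69 of 78 of SSP25 lie below 0, and the members spread on either side of the median of all genes.

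**Figure D1:**
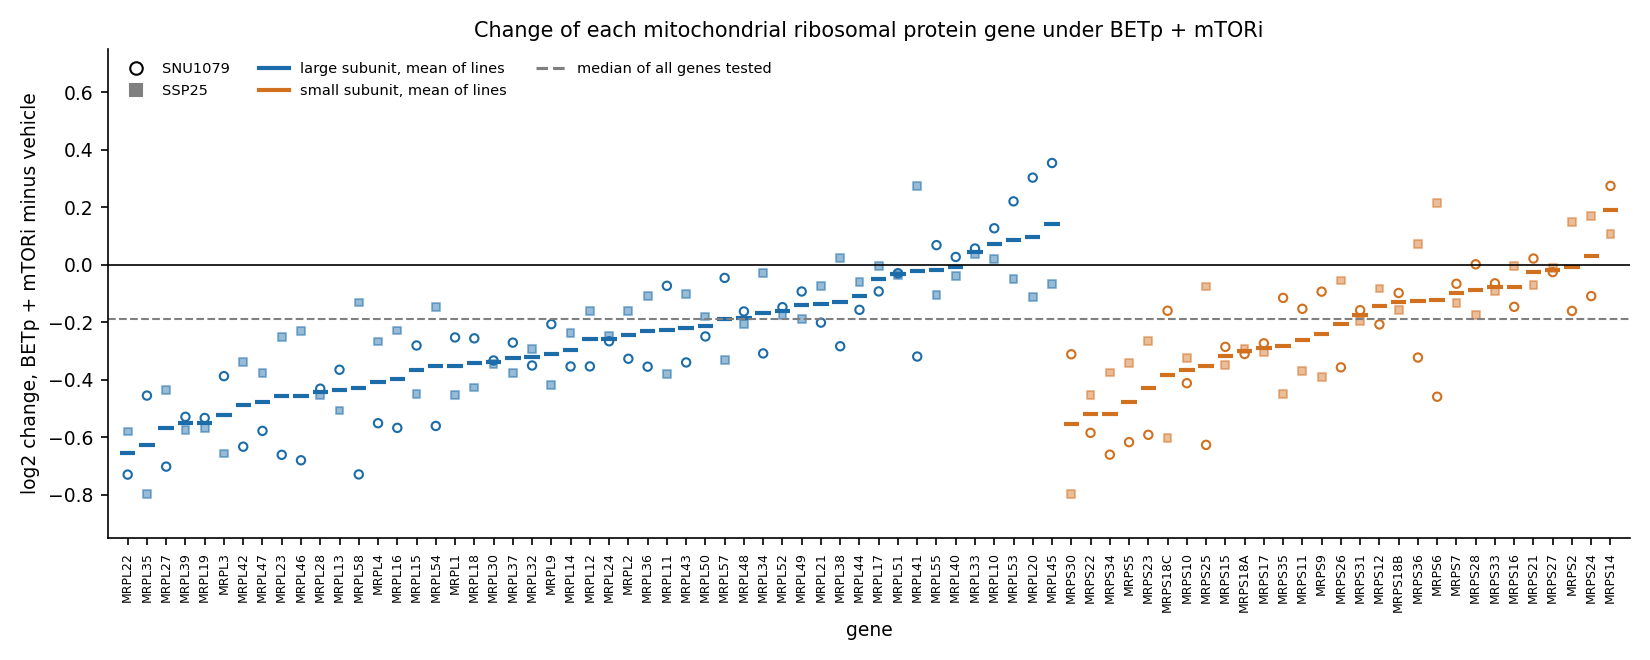
Log2 change of each member, BETp + mTORi minus vehicle, with genes on the horizontal axis sorted within each subunit. Circles are SNU1079, squares SSP25, bars the mean of the lines, and the dashed line the median of all 16060 genes (-0.19); the means run between -0.65 for MRPL22 and 0.19 for MRPS14.

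The called member was MRPL22, on GRCh37 chromosome 5 from 154320633 to 154348971, whose bacterial relative L22 lines the tunnel through which the new protein leaves the ribosome. In SNU1079 MRPL22 was at 36.5 TPM with BETp + mTORi, 52.0 TPM with BETp and 50.05 TPM with mTORi, against 61.2 TPM with vehicle. SSP25 had 38.7, 48.1 and 51.6 TPM with the same treatments, against 58.3 TPM with vehicle. Both values with the joint treatment lay below all 6 others, both with vehicle above, and the single drugs between them. The fitted log2 change was -0.65 ± 0.11 (SE), 0.635-fold, with an adjusted p of 0.0438 by limma. The call held in 1 of 16 alternative settings, with adjusted p between 0.0316 and 1, while the log2 change stayed between -0.72 and -0.43.

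Next to MRPL22 the lowest values shared in sign by both lines were those of MRPL35 (-0.63 ± 0.14, adjusted p = 0.0626) and MRPL27 (-0.57 ± 0.11, adjusted p = 0.0559), neither of which passed. Among the 3 members higher in both lines, MRPS14 had the furthest value, 0.19 ± 0.12 (adjusted p = 0.352), beside 0.07 ± 0.13 for MRPL10 and 0.05 ± 0.10 for MRPL33. MRPS14 stood at 31.3 TPM with BETp + mTORi, 31.3 TPM with BETp and 22.4 TPM with mTORi in SNU1079, against 25.7 TPM with vehicle. The corresponding SSP25 values were 32.5, 33.0 and 28.1 TPM, against 30.1 TPM with vehicle. In both lines the libraries that held BETp were thus above those that did not.

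The order of the 4 treatments was also read within each line. The joint treatment gave the lowest value for 52 members in SNU1079 (66.7%, beside 43.6% of all genes) and for 41 in SSP25 (52.6%, beside 39.2%). It did so in both lines for 27 of 78 members (34.6%, beside 21.9% of all genes). Both single drugs also lay between the joint treatment and vehicle for 38 members in SNU1079 (48.7%, beside 23.5% of all genes) and 25 in SSP25 (32.1%, beside 26.2%). For 15 members (19.2%, beside 8.71% of all genes) this order held in both lines. These 15 were MRPL1, MRPL3, MRPL4, MRPL13, MRPL14, MRPL15, MRPL22, MRPL28, MRPL30, MRPL46, MRPS15, MRPS22, MRPS26, MRPS30 and MRPS34, or 10 large and 5 small subunit genes by name. Mitochondrial genome transcripts took 14.4%, 15.3%, 17.1% and 19.2% of TPM in SNU1079 with vehicle, mTORi, BETp and BETp + mTORi. In SSP25 they took 5.99%, 8.64%, 7.22% and 10.1% with the same treatments. A rising share of them lowers the TPM of all other genes. How many of these orders remain after rescaling was not counted.

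BETp alone was set against vehicle to ask what BET degradation did without mTOR inhibition. The limma test called 0 of 78 members, beside 0.00623% of all genes, and 5 members had an unadjusted p under 0.05 (6.41%, beside 8.90% of all genes). The median log2 change of members was -0.07, and that of all genes -0.07. A lower value in both lines was found for 37 members (all genes 38.1%) and a higher one for 11 (all genes 18.2%). The lowest values of shared sign were those of MRPL54 (-0.38 ± 0.13), MRPL27 (-0.34 ± 0.11) and MRPL3 (-0.33 ± 0.11), and the highest those of MRPS36 (0.31 ± 0.20), MRPS14 (0.20 ± 0.12) and MRPL10 (0.13 ± 0.13). None of these passed limma after adjustment over all genes, with adjusted p between 0.497 and 0.781.

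For mTORi alone against vehicle limma again called 0 of 78 members, beside 0.0125% of all genes, with 15 at an unadjusted p under 0.05 (19.2%, beside 10.3% of all genes). The median was -0.14 over members and -0.11 over all genes, and 49 members were lower (all genes 41.5%) and 3 higher (all genes 12.2%) in both lines. Protein-coding genes had a median of -0.12, with 45.3% lower in both lines. MRPL35 (-0.59 ± 0.14), MRPL42 (-0.49 ± 0.14) and MRPL19 (-0.45 ± 0.12) had the lowest values of shared sign without passing (adjusted p of 0.413 to 0.417). MRPL40 (0.09 ± 0.11), MRPS33 (0.07 ± 0.12) and MRPS11 (0.03 ± 0.12) had the furthest positive values shared by both lines.

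Averaging each drug over the presence of the other sets 4 libraries with a drug against 4 without it. With BETp present, 2 of 78 members fell by the limma test and 0 rose, beside 1.82% of all genes called (0.461% higher and 1.36% lower). The median of members (-0.08) was that of all genes (-0.08), and 40 members were lower (all genes 43.1%) and 9 higher (all genes 20.1%) in both lines. Both called genes have bacterial relatives that belong to or border the peptidyl transferase centre, where peptide bonds form.

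MRPL27, on GRCh37 chromosome 17 from 48445218 to 48450568, was at 59.0 TPM with BETp + mTORi and 76.5 TPM with BETp in SNU1079, against 86.6 TPM with mTORi and 96.6 TPM with vehicle. In SSP25 the values with BETp were 57.9 and 61.4 TPM in the same order, against 80.4 TPM with mTORi and 78.6 TPM with vehicle. All 4 libraries with BETp lay below all 4 without it. The log2 change was -0.42 ± 0.08, with an adjusted p of 0.0434 by limma.

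MRPL3, on GRCh37 chromosome 3 from 131181056 to 131221827, was at 88.7 TPM with BETp + mTORi and 101 TPM with BETp in SNU1079, against 111 TPM with mTORi and 116 TPM with vehicle. SSP25 gave 87.6 and 101 TPM with BETp present, against 115 TPM with mTORi and 139 TPM with vehicle. Here too the groups did not overlap. The log2 change was -0.34 ± 0.07 (adjusted p = 0.0491 by limma). Of 16 alternative settings, the call of MRPL27 held in 1 and that of MRPL3 in 2, with adjusted p up to 1.

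MRPL39 (-0.39 ± 0.11) and MRPL54 (-0.35 ± 0.08), both proteins without bacterial relatives, had lower values than MRPL3 with BETp present but did not pass, with adjusted p of 0.0984 and 0.0694. At the other end stood MRPS14 (0.27 ± 0.08, adjusted p = 0.115), MRPL53 (0.18 ± 0.10) and MRPL20 (0.17 ± 0.10).

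With mTORi present, 2 members fell and 0 rose by the limma test, beside 1.05% of all genes called (0.162% higher and 0.884% lower). The median was -0.16 over members and -0.11 over all genes. A lower value in both lines was found for 61 of 78 members (all genes 47.6%) and a higher one for 0 of 78 (all genes 12.2%). Among protein-coding genes 52.2% were lower in both lines, with a median of -0.13. The fitted change was below 0 for 71 members, but for 45 with quantile normalization, 67 after rescaling without mitochondrial genome transcripts and 54 after leaving out cytosolic ribosomal protein genes as well. Among all genes tested 73.1% were below 0, and 49.9%, 68.1% and 58.9% under those settings in the same order. Large and small subunit genes had the same median to 2 decimals, -0.16.

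MRPL35, on GRCh37 chromosome 2 from 86426478 to 86440913, encodes a large subunit protein with a bacterial relative. SNU1079 held 32.5 TPM with BETp + mTORi and 28.4 TPM with mTORi, against 45.1 TPM with BETp and 44.9 TPM with vehicle. In SSP25 the values were 27.6 TPM with BETp + mTORi and 33.1 TPM with mTORi, against 42.8 TPM with BETp and 48.7 TPM with vehicle. The 4 libraries with mTORi lay below the 4 without it in both lines. The log2 change was -0.57 ± 0.09, or 0.675-fold (adjusted p = 0.0428 by limma).

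MRPS22, on GRCh37 chromosome 3 from 138724648 to 139079339, encodes a small subunit protein that is found only in mitochondria and is mutated in inherited disorders of mitochondrial translation. It stood at 36.8 TPM with BETp + mTORi and 41.1 TPM with mTORi in SNU1079, against 48.7 TPM with BETp and 55.7 TPM with vehicle. SSP25 had 81.6 and 93.7 TPM with mTORi present, against 103 TPM with BETp and 112 TPM with vehicle. Within each line the libraries with mTORi were the lower ones, although the lines differed by more than the drug changed. The log2 change was -0.35 ± 0.06 (adjusted p = 0.0488). MRPL35 and MRPS22 each held in 1 of 16 alternative settings, with adjusted p up to 1.

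MRPL47 (-0.47 ± 0.09, adjusted p = 0.0566) and MRPL19 (-0.41 ± 0.08, adjusted p = 0.0565) had lower values than MRPS22 with mTORi present but did not pass. The 3 least negative members with a shared sign in the lines were MRPL17 (-0.05 ± 0.07), MRPL10 (-0.05 ± 0.08) and MRPL21 (-0.06 ± 0.06).

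**Figure D2:**
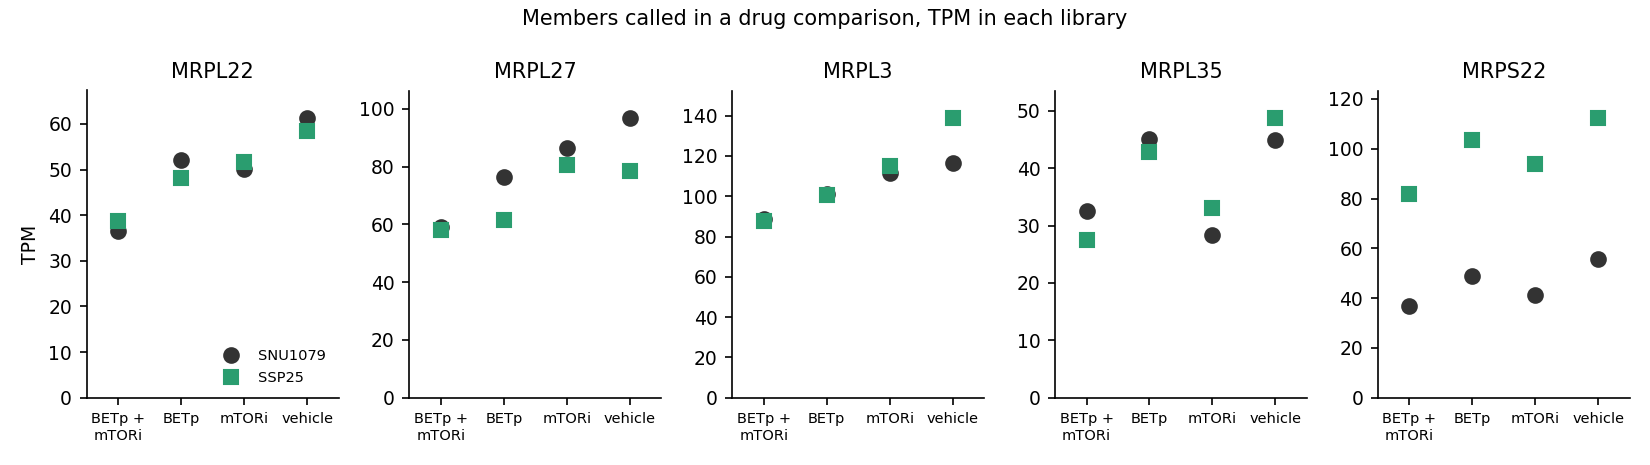
TPM of the 5 members called in a drug comparison, 1 panel per gene, with the treatments on the horizontal axis. Circles are SNU1079 and squares SSP25, each a single library; in all 5 genes the value with BETp + mTORi is below that with vehicle in each line, and MRPS22 is lower throughout in SNU1079 (36.8 to 55.7 TPM) than in SSP25 (81.6 to 112 TPM).

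The promoters of the called members are shown because these genes all fell. Windows from 250 bases before to 50 after the start came from RefSeq (GRCh38.p14) and matched 69 of the 78 members. MRPL35 was not matched, nor were MRPL2, MRPL10, MRPL13, MRPL15, MRPL21, MRPL23, MRPS28 and MRPS36. Each sequence runs 5′ to 3′ along the strand of its gene, and capitals mark matches on either strand to GCATGCGC (bound by NRF1), CCGGAAG (bound by ETS factors such as GABP) and AAGATGGC (bound by YY1). The windows are chr5:154940823-154941122 (plus strand) for MRPL22, chr17:50373135-50373434 (minus strand) for MRPL27, chr3:131502922-131503221 (minus strand) for MRPL3 and chr3:139343744-139344043 (plus strand) for MRPS22.
MRPL22: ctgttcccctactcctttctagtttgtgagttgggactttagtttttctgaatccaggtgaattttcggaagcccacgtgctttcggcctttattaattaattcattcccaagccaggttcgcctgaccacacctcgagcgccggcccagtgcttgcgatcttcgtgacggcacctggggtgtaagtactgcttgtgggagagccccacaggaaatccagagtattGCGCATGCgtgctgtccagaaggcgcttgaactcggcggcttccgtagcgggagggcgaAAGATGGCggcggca
MRPL27: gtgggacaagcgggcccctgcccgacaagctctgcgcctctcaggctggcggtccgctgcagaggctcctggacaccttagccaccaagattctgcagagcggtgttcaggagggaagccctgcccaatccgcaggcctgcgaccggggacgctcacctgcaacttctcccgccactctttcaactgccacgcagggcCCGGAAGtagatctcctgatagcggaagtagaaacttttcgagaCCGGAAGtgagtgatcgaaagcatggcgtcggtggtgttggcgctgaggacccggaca
MRPL3: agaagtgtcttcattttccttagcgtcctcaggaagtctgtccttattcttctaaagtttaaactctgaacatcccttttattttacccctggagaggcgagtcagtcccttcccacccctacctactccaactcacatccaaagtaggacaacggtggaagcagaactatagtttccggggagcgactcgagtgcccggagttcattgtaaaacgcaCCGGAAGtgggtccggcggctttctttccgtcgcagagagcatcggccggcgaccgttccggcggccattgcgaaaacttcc
MRPS22: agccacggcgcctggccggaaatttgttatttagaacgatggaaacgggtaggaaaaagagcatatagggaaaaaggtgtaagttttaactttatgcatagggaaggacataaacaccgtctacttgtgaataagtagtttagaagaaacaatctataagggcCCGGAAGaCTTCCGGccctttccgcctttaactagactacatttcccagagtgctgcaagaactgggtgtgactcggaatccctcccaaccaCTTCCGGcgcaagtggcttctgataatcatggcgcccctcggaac
MRPL22 holds the letters for NRF1 at 24 bases before its start and those for YY1 at 36 after it. MRPL27 has a pair of ETS matches, MRPL3 holds 1 and MRPS22 holds 3. No match says only that those letters are not in this window, and a match is not evidence of binding.

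Matches were common among the members as a whole. The letters CCGGAAG were in 29 of the 69 windows, beside 10.7% of all 27305 RefSeq windows and 18.9% of the 10417 windows of tested genes. AAGATGGC was in 29.0% of member windows, beside 3.03% of all windows and 5.33% of those of tested genes, and GCATGCGC in 8.70%, beside 3.27% and 5.53%. At least 1 of the 3 was in 60.9% of member windows, beside 15.6% of all and 26.8% of those of tested genes, with 59.5% for large and 63.0% for small subunit genes. CACGTG (the E-box) was in 8.70%, beside 7.43% of all windows and 10.3% of those of tested genes, and CCAAT in 29.0%, beside 35.7% and 36.9%. Each motif was searched on both strands and counted by itself where matches overlapped. The median GC content was 60.3% in member windows and 58.3% in all.

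Changes of members with and without each motif were set side by side, with no test. Under BETp + mTORi the median log2 change was -0.19 for 20 members with the YY1 letters and -0.26 for 49 without them. It was -0.22 for 29 members with the ETS letters and -0.26 for 40 without, and -0.24 for 6 members with the NRF1 letters and -0.26 for 63 without. With BETp present the medians were -0.03 with and -0.10 without the YY1 letters, and with mTORi present -0.18 with and -0.15 without them. Of the genes for these factors, YY1 itself was at 21.5 TPM with BETp + mTORi, 24.2 TPM with BETp and 28.3 TPM with mTORi in SNU1079, against 33.2 TPM with vehicle. SSP25 had 31.2, 32.9 and 35.9 TPM, against 48.6 TPM with vehicle. Its log2 change under BETp + mTORi was -0.62 ± 0.11 and was not called (adjusted p = 0.0508 by limma). YY1 passed in 1 of 16 alternative settings, with a log2 change between -0.67 and -0.39 over them. GABPA, which encodes the DNA-binding part of GABP, had -0.27 ± 0.15 and NRF1 -0.26 ± 0.20, with adjusted p of 0.295 and 0.435.

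Of the stalk genes, MRPL12 averaged -0.29 ± 0.06 with mTORi present (adjusted p = 0.0613) and 0.03 ± 0.06 with BETp present (adjusted p = 0.777). MRPL11, the stalk base, had -0.22 ± 0.07 with BETp present (adjusted p = 0.146) and -0.01 ± 0.07 with mTORi present (adjusted p = 0.971). MRPL10, to which MRPL12 binds, had 0.13 ± 0.08 and -0.05 ± 0.08 in these comparisons. None of the 3 passed, and differences between them were not tested.

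MRPS12, a protein of the decoding centre, had -0.14 ± 0.10 under BETp + mTORi (adjusted p = 0.372). The paralogs MRPS18A, MRPS18B and MRPS18C, which occupy separate places in the mitoribosome, had -0.30 ± 0.10, -0.13 ± 0.10 and -0.38 ± 0.16. MRPS30 had -0.55 ± 0.13 (adjusted p = 0.0729), with -0.31 in SNU1079 and -0.80 in SSP25. MRPS36, the dehydrogenase component, had -0.12 ± 0.20 with opposite signs in the lines (-0.32 in SNU1079 and 0.07 in SSP25).

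Genes with bacterial relatives (45 members) had a median of -0.29 under BETp + mTORi and those found only in mitochondria (32 members) -0.20. The quartiles of both classes overlapped those of all genes. No class was tested.

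The joint treatment was also set against each single drug. Against BETp, 0 of 78 members and 0% of all genes were called by limma, with 20 members at an unadjusted p under 0.05 (25.6%, beside 11.5% of all genes) and a median of -0.19 (all genes -0.12). In both lines 57 members were lower (all genes 45.1%) and 2 higher (all genes 13.3%). Of protein-coding genes 49.7% were lower in both lines, with a median of -0.13. Against mTORi, 0 of 78 members were called beside 0.0125% of all genes, with 12 at an unadjusted p under 0.05 (15.4%, beside 13.4% of all genes) and a median of -0.09 (all genes -0.08). In both lines 40 were lower (all genes 38.6%) and 10 higher (all genes 20.0%). Departure from additivity, the joint effect minus the sum of both single effects, gave 0 calls among members and 0% among all genes, and 0 members had an unadjusted p under 0.05. The median departure was -0.03 over members and -0.01 over all genes, with 13 members above 0 (all genes 22.6%) and 26 below 0 (all genes 25.2%) in both lines.

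Other genes of mitochondrial translation gave a scale for these changes. The 5 subunit genes with other names (DAP3, AURKAIP1, CHCHD1, PTCD3 and GADD45GIP1) had a median of -0.18 under BETp + mTORi, with 0 called. Of 26 assembly factors 0 were called (median -0.19), of 20 mitochondrial tRNA synthetases 0 (median -0.24), and of 16 translation factors 1 fell (median -0.25). That gene was GUF1, which encodes a GTPase that binds mitoribosomes, with a log2 change of -0.81 ± 0.15 (adjusted p = 0.0493). The call held in 1 of 16 alternative settings and was lost when any 1 library was left out. GUF1 was at 6.48 TPM in SNU1079 and 11.8 TPM in SSP25 with BETp + mTORi, against 11.7 and 22 TPM with vehicle.

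Transcripts of the mitochondrial genome were higher with the joint treatment. All 13 mRNAs were higher with BETp + mTORi than with vehicle in both lines, with a median of 0.57, and 2 of them rose by the limma test, MT-CO1 (0.67 ± 0.12, adjusted p = 0.0474) and MT-ATP6 (0.54 ± 0.09, adjusted p = 0.0481). Each call held in 1 of 14 alternative settings and was lost when any 1 library was left out, with adjusted p up to 1. The mitoribosome's own rRNAs had 0.58 ± 0.18 (MT-RNR1) and 0.60 ± 0.19 (MT-RNR2) without passing (adjusted p of 0.112 and 0.109). MT-RNR2 was at 15676 TPM with BETp + mTORi in SNU1079, against 12001 TPM with vehicle, and at 5462 TPM in SSP25, against 3084 TPM with vehicle. The medians of the rRNAs and of the members were of opposite sign.

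Because TPM are shares of a library, these transcripts bear on every other value. Mitochondrial genome transcripts took 19.2% of TPM with BETp + mTORi in SNU1079, against 14.4% with vehicle, and 10.1% in SSP25, against 5.99% with vehicle. Rescaled without them, the median of members under BETp + mTORi was -0.18 and that of all genes -0.13. Quantile normalization, which forces all libraries to one distribution, put members at -0.04 and all genes at 0.00. Of the 78 members 71 had a fitted change below 0 under the joint treatment, against 63 after that rescaling and 43 with quantile normalization. The shares of all genes below 0 were 73.1%, 66.6% and 49.8% in the same order.

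Cytosolic ribosomal protein genes, whose mRNAs are translated under mTOR control, were higher with mTORi present. With mTORi present, 13 of 79 rose by the limma test and 0 fell, with a median of 0.21, whereas the mitochondrial set had 0 rises, 2 falls and a median of -0.16. These 13 calls became 31 with the filter at 5 TPM, 10 after rescaling without mitochondrial genome transcripts and 0 in the other settings, including when any 1 library was left out. With BETp present, 0 of 79 rose and 2 fell (median -0.16), and 0 fell when any library was left out. The plot of gene groups shows the fitted medians of both subunits left of 0 and those of the mitochondrial genome right of it in all 3 comparisons. In single lines, the 2 mitochondrial rRNAs with mTORi present had a median of -0.01 in SNU1079 and 0.56 in SSP25.

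**Figure D3:**
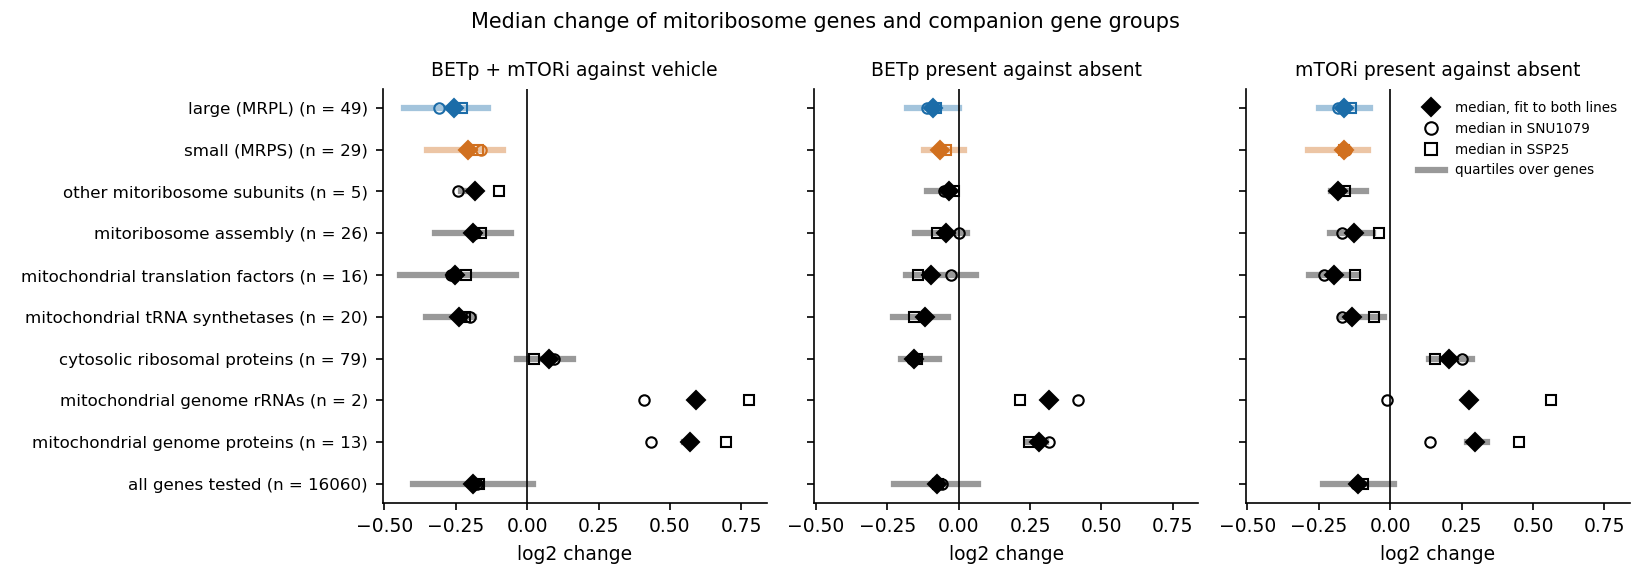
Median log2 change of mitoribosome genes and companion groups in 3 comparisons, 1 panel each, with groups on the vertical axis. Diamonds are medians of the fit to both lines, circles medians in SNU1079, squares medians in SSP25, and bars the quartiles over genes; with mTORi present, cytosolic ribosomal protein genes have a median of 0.21 and both mitoribosomal subunits -0.16.

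The lines themselves differed far more than the treatments. Members of the 2 lines correlated at only 0.659 to 0.709 between libraries, beside 0.971 to 0.987 within a line. In SNU1079 against SSP25, 58 of 78 members were called by limma, 21 higher and 37 lower in SNU1079, beside 74.0% of all genes (38.2% higher and 35.8% lower). In this comparison the 4 libraries of each line, each with another treatment, served as the replicates. Its p-values thus measure how the line difference varied over treatments, not the spread between repeated cultures. With every treatment alike, 25 members were higher (all genes 39.8%) and 39 lower (all genes 37.2%). The median was -0.17 over members and 0.05 over all genes. The split depended on scaling: with quantile normalization 33 members were called higher and 28 lower, and after rescaling without mitochondrial genome transcripts 27 higher and 30 lower. Leaving out cytosolic ribosomal protein genes as well gave 36 higher and 24 lower. Among all genes these settings called 6082, 7068 and 8224 higher and 5655, 5138 and 4485 lower, in the same order. They tested 16060, 16479 and 17092 genes.

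The furthest member by line was MRPS35, on GRCh37 chromosome 12 from 27863755 to 27909228, which encodes a small subunit protein found only in mitochondria. SNU1079 held 444 TPM with BETp + mTORi, 537 TPM with BETp, 426 TPM with mTORi and 481 TPM with vehicle. SSP25 held 54.8, 59.2, 65.2 and 75.2 TPM with the same treatments. Every SNU1079 value was above every SSP25 value, and MRPS35 was the highest member in all SNU1079 libraries. The log2 difference was 2.88 ± 0.10, or 7.35-fold (adjusted p = 7.22e-07 by limma). The balance of the subunits was read with and without MRPS35. The summed TPM of large over small subunit genes was 1.43 to 1.504 in SNU1079 and 1.91 to 1.99 in SSP25. Without MRPS35 it was 1.82 to 1.85 in SNU1079 and 1.97 to 2.06 in SSP25.

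MRPL32 (1.32 ± 0.08), a large subunit protein that is matured by the m-AAA protease, was the next highest in SNU1079. MRPL10 (1.22 ± 0.09), MRPS27 (1.13 ± 0.08) and MRPL45 (1.07 ± 0.09) followed, the last a protein near the tunnel exit that anchors the ribosome to the inner membrane. MRPL10 stood at 73.0 to 89.4 TPM in SNU1079, against 32.3 to 38.9 TPM in SSP25. MRPL12, its partner in the stalk, did not differ by the test (0.01 ± 0.07, adjusted p = 0.930).

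The furthest in the other direction was MRPL17, at 34.8 to 38.2 TPM in SNU1079, against 150 to 171 TPM in SSP25. Its log2 difference was -2.09 ± 0.07, or 0.234-fold (adjusted p = 6.54e-07 by limma). MRPL20 (-1.80 ± 0.10), a relative of an early assembly protein of bacterial ribosomes, came next. MRPS18C (-1.53 ± 0.11), MRPL16 (-1.18 ± 0.12) and MRPS22 (-1.09 ± 0.07) followed, with adjusted p between 5.21e-06 and 8.45e-05 for these 4 genes. All 10 of these members were called in each of 15 alternative settings.

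Of the 3 MRPS18 paralogs, MRPS18C was lower in SNU1079 (13.9 to 18.9 TPM) than in SSP25 (38.8 to 59.5 TPM). MRPS18B was higher by 0.47 ± 0.07 (adjusted p = 0.000594), and both calls held in 15 of 15 alternative settings. MRPS18A was lower by the test at -0.18 ± 0.07 (adjusted p = 0.0467), but this call held in 3 of 15 settings. Its value was 0.02 with quantile normalization, -0.05 after rescaling without mitochondrial genome transcripts and 0.12 after leaving out cytosolic ribosomal protein genes as well.

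The chromosomal surroundings of the members were read for the same difference. All 11 tested genes within 1 Mb of MRPS35 were higher in SNU1079, with a median of 2.52 beside 0.22 for chromosome 12. KLHL42 has its midpoint 58.0 kb from that of MRPS35. It stood at 60.5 TPM with BETp + mTORi, 70.6 TPM with BETp, 60.1 TPM with mTORi and 59.6 TPM with vehicle in SNU1079, against 3.92 to 5.30 TPM in SSP25. STK38L (3.52 ± 0.14) and MED21 (2.88 ± 0.10) had differences of the same kind. The smallest difference among the 11 was that of PTHLH (0.46 ± 0.16), and further out ERGIC2, at 1.63 Mb, had 1.88. BHLHE41 at -1.61 Mb (-0.99) and TMTC1 at 1.91 Mb (-2.48) were lower in SNU1079. DNA copy number was not measured in these libraries.

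**Figure D4:**
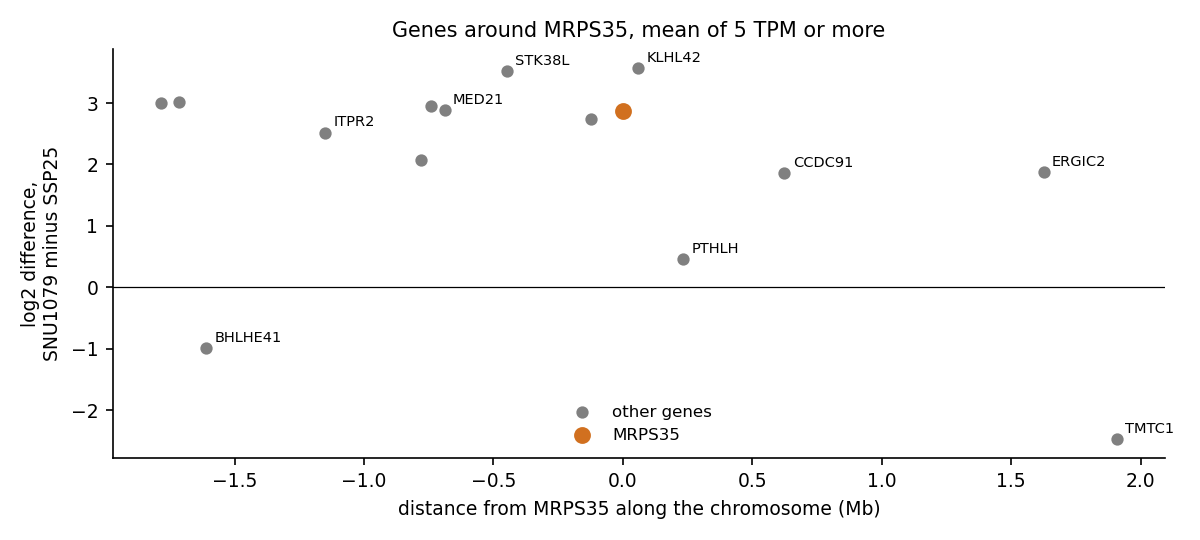
Log2 difference, SNU1079 minus SSP25, of genes around MRPS35 with a mean of 5 TPM or more within 2 Mb of it, against the distance between gene midpoints in Mb. MRPS35 (2.88) is the large orange point, other genes are grey, and all points are above 0 except BHLHE41 (-0.99) and TMTC1 (-2.48).

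Over the 75 members with at least 5 tested neighbours, the line difference of a member and the median of its neighbours had a Pearson r of 0.65 and a Spearman rho of 0.62. Without MRPS35 these were 0.57 and 0.61 over 74 members. Genes share the same 8 libraries and some share neighbours, so these values are descriptions. MRPL17 (own -2.09, neighbours -1.24) and MRPL48 (own 0.89, neighbours 1.72) had the sign of their surroundings. MRPL44 (own 0.86, neighbours -0.91) had the opposite sign. The neighbours of MRPS22 (own -1.09) had a median of 0.01, with 6 of 11 above 0, and so no clear sign.

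**Figure D5:**
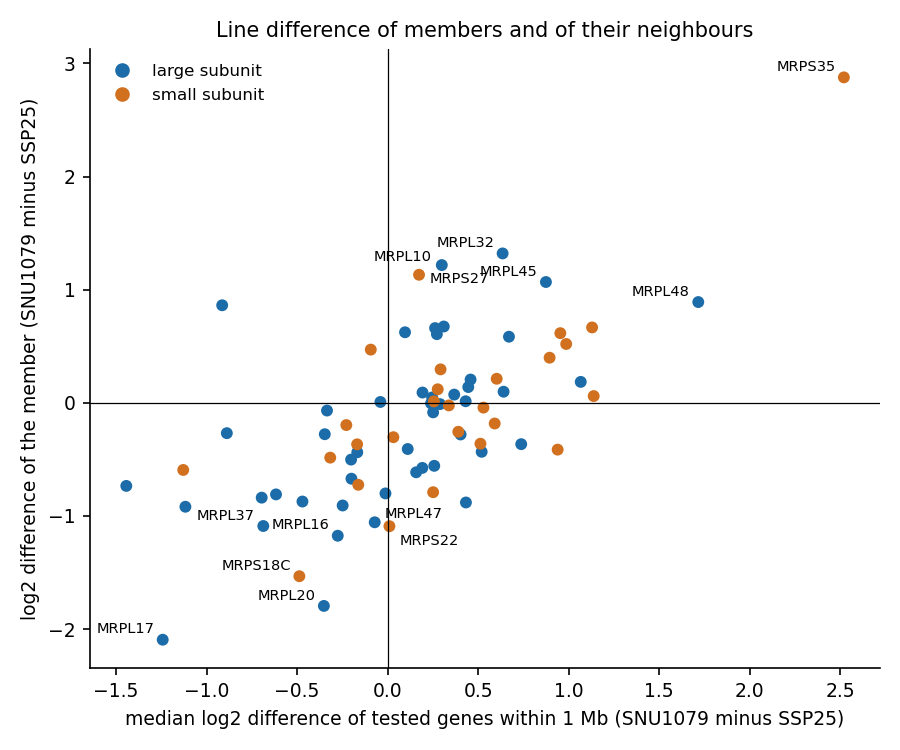
Log2 difference, SNU1079 minus SSP25, of each of 75 members (vertical axis) against the median log2 difference of tested genes within 1 Mb (horizontal axis). Blue points are large and orange points small subunit genes; MRPS35 lies at the top right (2.88 against 2.52) and MRPL17 at the bottom left (-2.09 against -1.24).

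Whether the drugs acted differently in the lines was tested with interaction terms. The spread in that fit is the departure from additivity within each line, since no treatment was repeated in a line. For BETp, limma called 0 of 78 members beside 0.00623% of all genes, with 7 members at an unadjusted p under 0.05 (8.97%, beside 12.4% of all genes). For mTORi it called 0 of 78 beside 0% of all genes, with 5 at an unadjusted p under 0.05 (6.41%, beside 14.2% of all genes). The furthest value was that of MRPS6 for BETp, -0.69 ± 0.13 as SNU1079 minus SSP25 (adjusted p = 0.208).

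MRPS6, a small subunit protein with a bacterial relative, was at 29.95 TPM with BETp + mTORi and 34.3 TPM with BETp in SNU1079, against 38.1 TPM with mTORi and 41.5 TPM with vehicle. In SSP25 it was at 51.7 and 54.2 TPM with BETp present, against 36.6 TPM with mTORi and 44.4 TPM with vehicle. Both pairs in SNU1079 were lower with BETp and both in SSP25 higher. The test did not show that the lines differed. Across the 78 members the changes in the lines had a Pearson r of 0.49 for mTORi present, 0.27 for BETp present and 0.39 for BETp + mTORi, beside 0.12, 0.31 and 0.26 across all genes. All genes include noncoding genes and genes near 1 TPM, whereas no member was below 5.10 TPM. No set matched in level was compared.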

How the data were processed

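RNA was sequenced from SNU1079 and SSP25 as strand-specific libraries of paired reads of 100 bp. The authors deposited TPM per gene, 1 table per line, on GRCh37. Their processing notes name DESeq2 and edgeR as tools of the submitters, while the sources used here name neither aligner nor annotation. Columns were matched to treatments by name, and no table held unused value columns. No 2 libraries were identical.

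Values were set to log2(TPM + 1), so fold changes of low genes are understated. Genes that reached 1 TPM in 2 or more libraries were fitted with limma 3.58.1 in R 4.3.3 (eBayes with an intensity trend, two-sided, Benjamini-Hochberg over all 16060 genes, calls at 0.05). The model held treatment and cell line. Drugs averaged over each other, and line-by-drug terms, had models of their own. The pairing is the cell line itself, so line was kept as a block. The fit was run on simulated data with planted changes alike in both lines. These were larger than the changes of members called in a drug comparison, so the run does not bear on those calls. Errors are standard errors of the fit.

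Members and gene lists were chosen with earlier results of these data known. Named members were those highest and lowest in level, those called, those furthest in each direction in a comparison, and those of set role. MRPS6, MRPL44, MRPL48, MRPL47, members that turned sign with scaling and genes around MRPS35 were named after their values were seen. Certain genes are not reported here. Positions are those of GENCODE 44 on GRCh37. Neighbours were tested genes, other than members, with any part within 1 Mb of the member. Distances are those between gene midpoints. The alternatives changed the pseudocount (0.1), the filter (none, or 5 TPM), the scaling (quantile normalization, or rescaling without mitochondrial genome transcripts), the variance model (robust, no trend), the block, and which library was left out. Assigning subunits by structure, and rescaling also without cytosolic ribosomal protein genes, were added after the data had been seen.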

Additional observations from a re-analysis of the deposited data

How the results depend on the processing

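With 1 library per line and treatment and no read depth, small changes were not detectable, and the drug calls of single members were not stable. Under BETp + mTORi against vehicle the 1 called member became 6 with a filter at 5 TPM. It became 0 with a pseudocount of 0.1, with no filter, with quantile normalization, under both rescalings, with robust eBayes without trend, with no replicate block, and when any library was left out (0 to 0). With BETp present the 2 calls became 0 under these settings, apart from 3 with the filter at 5 TPM, and 0 to 1 when a library was left out (1 without SNU1079 vehicle). With mTORi present the 2 calls became 5 with the filter at 5 TPM and 0 under all the others, leaving out a library included (0 to 0). Without the block the line differences enter the spread. The filter at 5 TPM tests fewer genes, 11772. Of these it called 657 under BETp + mTORi, 476 with BETp present and 483 with mTORi present. The main fit called 291, 292 and 168 of 16060 genes in the same order. Under BETp + mTORi the median over the 11772 genes was -0.21. The cause of the other losses was not tested.

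Medians of members, as log2 change, moved with scaling. With quantile normalization they were 0.0046 for BETp against vehicle, -0.0076 for mTORi, -0.037 for BETp + mTORi, -0.043 for BETp + mTORi against BETp, -0.0024 against mTORi, 0.0032 with BETp present, -0.024 with mTORi present and 0.014 for SNU1079 against SSP25. Rescaled without mitochondrial genome transcripts they were -0.035, -0.11 and -0.18 for BETp, mTORi and BETp + mTORi against vehicle, -0.043 with BETp present, -0.13 with mTORi present and -0.038 between lines. Leaving out cytosolic ribosomal protein genes as well, they were -0.062 for mTORi and -0.14 for BETp + mTORi against vehicle, -0.086 for BETp + mTORi against BETp, -0.071 with mTORi present and 0.12 between lines. The sign of the line median thus turned with scaling. A pseudocount of 0.1 gave -0.14 for mTORi against vehicle.

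Leaving out 1 library at a time, the medians ran from -0.089 to -0.054 for BETp against vehicle, from -0.15 to -0.14 for mTORi against vehicle, from -0.18 to -0.14 for mTORi present, from -0.059 to 0.014 for the line difference in the BETp effect.

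The number of line calls, 58, ran from 52 to 61 over the alternatives. Of the 58 members, 1 (MRPS18A, 0.017) turned sign with quantile normalization. After rescaling without mitochondrial genome and cytosolic ribosomal protein transcripts 5 did (MRPL11, MRPL15, MRPL58, MRPS7 and MRPS18A), and 0 of them passed the test there. The members called in a drug comparison kept their sign in every alternative.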

Other observations

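Genes that build or serve the mitoribosome without being part of it also differed between the lines. MALSU1, which binds the large subunit during assembly, was at 319 TPM with BETp + mTORi, 396 TPM with BETp, 422 TPM with mTORi and 436 TPM with vehicle in SNU1079. In SSP25 MALSU1 was at 62.7, 66.5, 58.1 and 55.9 TPM with the same treatments, a log2 difference of 2.67 ± 0.11 (adjusted p = 1.37e-06 by limma). NARS2, the mitochondrial asparaginyl-tRNA synthetase, differed by 2.82 ± 0.08, at 70.0 to 80.7 TPM in SNU1079, against 8.63 to 10.6 TPM in SSP25. In the other direction, RARS2, the arginyl enzyme, was at 13.3 to 15.7 TPM in SNU1079, against 45.03 to 51.6 TPM in SSP25 (-1.67 ± 0.08). TRUB2 (-1.51 ± 0.12) and TFB1M (-1.44 ± 0.10), which modify mitochondrial RNA, were lower in SNU1079 as well.

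Of 26 assembly factors, 11 were higher and 11 lower in SNU1079 by the test, and of 20 mitochondrial tRNA synthetases 10 were higher and 5 lower, beside 38.2% and 35.8% of all genes. All 13 mitochondrial mRNAs and both mitochondrial rRNAs were higher in SNU1079, with medians of 0.83 and 1.72. MT-RNR1 was at 2979 TPM with BETp + mTORi in SNU1079, against 2211 TPM with vehicle, and at 936 TPM with BETp + mTORi in SSP25, against 564 TPM with vehicle. PPARGC1A, a coactivator of mitochondrial biogenesis, was lower in SNU1079 (1.60 to 3.45 TPM) than in SSP25 (8.64 to 13.2 TPM), with a log2 difference of -1.73 ± 0.17.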
